A study of Mus musculus with 6 samples.

Results

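Fast excitatory input in the cerebellum is received by AMPA receptors and, at some synapses, organised by delta receptors. The levels of 7 genes of these receptors were followed across the cell types of the mouse cerebellum, out of 32286 genes in the count tables. They are the AMPA receptor subunit genes *Gria1*, *Gria2*, *Gria3* and *Gria4*, the delta receptor gene *Grid1*, and the genes of the scaffold proteins *Grid2ip* and *Grip1*. They were chosen by name, all 7 were found, and their unique molecular identifiers (UMIs, each standing for 1 captured transcript) were summed per mouse and per cell type label.

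The study isolated nuclei from the whole cerebellum of 3 *Pcp2-ATXN1[82Q]* mice (SCA1 mice), the model of spinocerebellar ataxia type 1, and from 3 wild-type (WT) littermates of the C57Bl6 strain, onto which the SCA1 line had been backcrossed, all aged 12 weeks, and sequenced 1 library per mouse. In SCA1 mice the *Pcp2* promoter, active in Purkinje cells (PCs), drives a human *ATXN1* transgene whose CAG repeat is expanded, and no other group or agent was used. As a model it is thus limited to a transgene driven in PCs. A UMI of human *ATXN1* was found in 10 of 65, 10 of 52 and 11 of 29 PC nuclei of SCA1 mice 1, 2 and 3 and in 0 of 146 WT PC nuclei. By counting error alone, with nuclei of the 3 mice pooled, this allows up to 2.05% of WT PC nuclei with such a UMI, and sets no limit on nuclei that express the gene.

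AMPA receptors are tetramers of the proteins GluA1 to GluA4, encoded by *Gria1* to *Gria4*, and the glutamate they bind opens a cation channel. Edited GluA2 makes the channel nearly impermeable to calcium, so that the part of GluA2 among the subunits sets how much calcium enters. Delta receptors are related proteins that bridge the synaptic cleft by binding cerebellins held by presynaptic neurexins, and PCs are known for a delta receptor at the synapses that granule neurons make on them. The *Grid2ip* protein, delphilin, is a scaffold at that PC synapse, and the *Grip1* protein binds the tails of GluA2 and GluA3 and takes part in their transport. Bergmann glia (BG), the astrocytes that ensheath PC synapses, are known for AMPA receptors that pass calcium.

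The libraries held 3354 to 10897 nuclei and 18916647 to 98366627 UMIs per mouse, and the median nucleus held 2246.5 UMIs in WT mouse 2, the shallowest, and up to 7253 UMIs elsewhere. From the numbers of the libraries, the mice numbered 1 of both genotypes were treated as 1 sequencing batch and the others as another. Pairs of libraries shared 7 to 44 cell barcodes. The cell type labels are those deposited with the counts, made with SingleR. Of 24 labels over 45473 nuclei, 16 held at least 50 nuclei and are described, and 13 held at least 10 nuclei in every mouse and were tested. Neurons without a name of their own are called here by the marker genes in their label, such as Pvalb-Nefh. The labels were checked against marker genes, with levels pooled over mice. *Skor2* was at 85.3 UMIs in 1000000 of its label (CPM) in PCs and near 0 elsewhere. The other PC genes checked were also highest in PCs but were found in every label. *Car8* was at 2463 CPM in PCs and 253 CPM in granule nuclei, *Ppp1r17* at 285 and 45.8, and *Calb1* at 815 and 212. *Pcp2* was at 659 and 281 CPM, and *Pcp4* at 522 and 415 CPM. *Slc1a3* was at 3440 CPM in BG and 749 CPM in velate astrocytes (VA), and *Eomes* and *Lmx1a*, genes of unipolar brush cells, were highest in Slc17a6-Sln. *Sorcs3*, an interneuron gene of the molecular layer, was highest in Pvalb-Nefh and Pvalb-Rab3b, *Nxph1* in Pvalb-Cadm1 and Pvalb-Chrm2, the Golgi cell gene *Slc6a5* in Lgi2, and the fibroblast genes *Dcn* and *Col1a2* in Dcn-Nnat. Pvalb-Rab3b also had *Nxph1* at 925 CPM, against 192 CPM in Pvalb-Nefh. Of its 458 nuclei, 0 carried the most common label of their cluster, and whether this label mixes kinds of interneurons was not tested. The label named for the choroid plexus had most *Ttr* (6685 CPM) and *Folr1* (137 CPM), genes of that tissue, but also most *Dnah12* (1616 CPM) and *Foxj1* (118 CPM), genes of ependymal cells, and is described as a mix of both. *Gabra6*, a gene of granule neurons, was at 697 CPM in granule nuclei and at 40.5 to 180 CPM in the other labels. Where it matters, the granule level of a member times the *Gabra6* ratio of label to granule nuclei is given below, as the level that granule RNA at that ratio would give.

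Levels are CPM of the sums scaled by edgeR's TMM factors, with mean ± SD over n = 6 mice. In sums over nuclei, fewer cells of a kind within a label and less RNA per cell cannot be told apart. The labels were assigned from the same RNA, so differences between labels are described and were not tested. Labels are said to overlap where their ranges over the mice meet, which leaves out the order within each mouse.

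*Gria1* (ENSMUSG00000020524, chromosome 11 of GRCm38 from 57011387 to 57330244, forward strand) encodes GluA1. It was highest in BG, at 5996 ± 2377 CPM, and BG held 61.1% of all its UMIs. The BG values were 4448, 4204 and 8575 CPM in SCA1 mice 1, 2 and 3 and 3737, 5725 and 9284 CPM in WT mice 1, 2 and 3. Every mouse was therefore well above the next label, PCs, which had 657 ± 167 CPM, 9.12 times less. The neurons of Slc17a6-Nrgn (506 ± 230 CPM) overlapped with PCs. VA followed with 226 ± 91.7 CPM, so that the 2 astrocyte labels were far apart. The remaining labels had at most 158 CPM on average and each overlapped with the next in order, among them granule neurons at 51.3 ± 22.4 CPM and the interneurons of the molecular layer in Pvalb-Nefh, Pvalb-Rab3b and Pvalb-Cadm1 at 52.0, 42.8 and 33.3 CPM.

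*Gria2* (ENSMUSG00000033981, chromosome 3 from 80681450 to 80802835, reverse strand) encodes GluA2. It was highest in Slc17a6-Sln, with 4984, 6437 and 5033 CPM in the SCA1 mice and 4833, 4980 and 5129 CPM in the WT mice. These 6 values did not overlap with those of any other label. Pvalb-Cadm1 (2598 ± 412 CPM) and PCs (2446 ± 355 CPM) overlapped, and granule neurons had 1006 ± 196 CPM. Among glia, VA had 360 ± 24.6, BG 320 ± 42.8 and oligodendrocytes (OL) 278 ± 64.0 CPM. Granule RNA at the *Gabra6* ratio would give 180 CPM in VA, 137 in BG and 177 in OL, and the measured level was above it in 6 of 6 mice in each. PC genes were also found in these labels, with *Car8* at 240, 227 and 253 CPM in VA, BG and OL against 2463 CPM in PCs. The granule gene *Etv1* was at 222 CPM in OL against 708 CPM in granule nuclei, and *Gabra6* at 162 against 697 CPM. The level that granule RNA would give thus depends on the gene chosen, and the part of PC RNA was not tested. In microglia and Dcn-Nnat *Gria2* was at 132 and 71.6 CPM, where granule RNA at the *Gabra6* ratio would give 170 and 121 CPM.

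*Gria3* (ENSMUSG00000001986, chromosome X from 41400854 to 41678601, forward strand) encodes GluA3. Its highest labels were the interneurons Pvalb-Nefh (1817 ± 338 CPM), Pvalb-Rab3b (1569 ± 238 CPM) and Pvalb-Cadm1 (1477 ± 221 CPM), followed by PCs (1397 ± 294 CPM), and each overlapped with the next. Pvalb-Nefh was above Pvalb-Rab3b within every mouse. A gap separated PCs from Lgi2 and Pvalb-Chrm2, which had 795 ± 97.5 and 768 ± 131 CPM. Slc17a6-Nrgn followed with 451 ± 40.2 CPM and did not overlap with its neighbours in the order. The other labels had at most 99.2 CPM on average, with 28.8 ± 17.9 CPM in granule neurons, 23.2 ± 13.3 CPM in BG and 17.7 ± 17.1 CPM in Slc17a6-Sln. Slc17a6-Sln, the label with most *Gria2*, thus had the lowest mean of *Gria3*, on 22 UMIs, but overlapped with BG and granule neurons.

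*Gria4* (ENSMUSG00000025892, chromosome 9 from 4417896 to 4796234, reverse strand) encodes GluA4. It was highest in BG, at 10012 ± 4088 CPM, with 6173, 9926 and 13554 CPM in the SCA1 mice and 5407, 9141 and 15869 CPM in the WT mice. Pvalb-Cadm1 (4433 ± 1431 CPM) overlapped with BG, and Pvalb-Rab3b, Pvalb-Nefh and granule neurons (3415, 3239 and 2297 CPM) formed an overlapping series below it. Within every mouse, though, BG was above Pvalb-Cadm1, Pvalb-Cadm1 above Pvalb-Rab3b, and Pvalb-Nefh above granule neurons. Granule neurons, 37532 of the nuclei, held 70.6% of all *Gria4* UMIs. PCs (100 ± 74.0 CPM) and the choroid plexus label (100 ± 71.1 CPM) were the lowest of the 16 labels and overlapped. In PCs granule RNA at the *Gabra6* ratio would give 94.9 CPM. The measured PC level was above that in 2 of 6 mice. Slc17a6-Sln stood alike, at 152 ± 79.0 CPM, where granule RNA at that ratio would give 150 CPM.

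*Grid1* (ENSMUSG00000041078, chromosome 14 from 34820108 to 35583379, forward strand), a delta receptor gene, was highest in the interneurons Pvalb-Nefh (1443 ± 411 CPM) and Pvalb-Rab3b (1217 ± 370 CPM), which overlapped. Within every mouse Pvalb-Nefh was the higher of these labels. Lgi2 had 804 ± 272, Slc17a6-Nrgn 619 ± 179 and Pvalb-Chrm2 523 ± 135 CPM. Among interneuron labels Pvalb-Cadm1 stood apart with 36.4 ± 18.2 CPM, a level at which none of its mice reached any of the others. BG (280 ± 97.7 CPM) and VA (274 ± 84.6 CPM) held alike amounts. PCs and granule neurons had next to none, 4.79 ± 6.85 and 10.7 ± 6.34 CPM, with no UMI in PCs of WT mice 2 and 3.

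*Grid2ip* (ENSMUSG00000010825, chromosome 5 from 143357338 to 143392152, forward strand) was the most restricted of the 7. PCs had 344 ± 98.2 CPM, 30.5 times the next label, Pvalb-Chrm2, at 11.3 ± 3.57 CPM. Every other label had at most 5.02 CPM on average, and microglia and choroid plexus nuclei had no UMI. At an equal depth of 3000 UMIs per nucleus, 53.6% ± 13.2 of PC nuclei had a UMI of it, against 0.823% ± 0.426 of granule nuclei, whose median depths before thinning were 16186 to 58288 and 2156 to 6948 UMIs. PCs held 76.8% of its UMIs and granule neurons, by far the most numerous, 17.4%.

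*Grip1* (ENSMUSG00000034813, chromosome 10 from 119453830 to 120087261, forward strand) was also highest in PCs, at 1741 ± 503 CPM, with 1496, 1406 and 2274 CPM in the SCA1 mice and 1332, 1450 and 2487 CPM in the WT mice. Lgi2 (1268 ± 269 CPM) overlapped with PCs, and Pvalb-Chrm2 (756 ± 222 CPM) and Slc17a6-Nrgn (614 ± 189 CPM) overlapped below it. Within every mouse PCs were above Lgi2. The choroid plexus label and Dcn-Nnat had 259 ± 53.3 and 238 ± 123 CPM. Granule neurons (15.7 ± 4.17 CPM), BG (21.6 ± 12.1 CPM) and OL (35.5 ± 21.5 CPM) had little. The interneurons Pvalb-Nefh, Pvalb-Rab3b and Pvalb-Cadm1, rich in *Gria3*, had 49.6, 73.7 and 45.2 CPM.

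**Figure D1:**
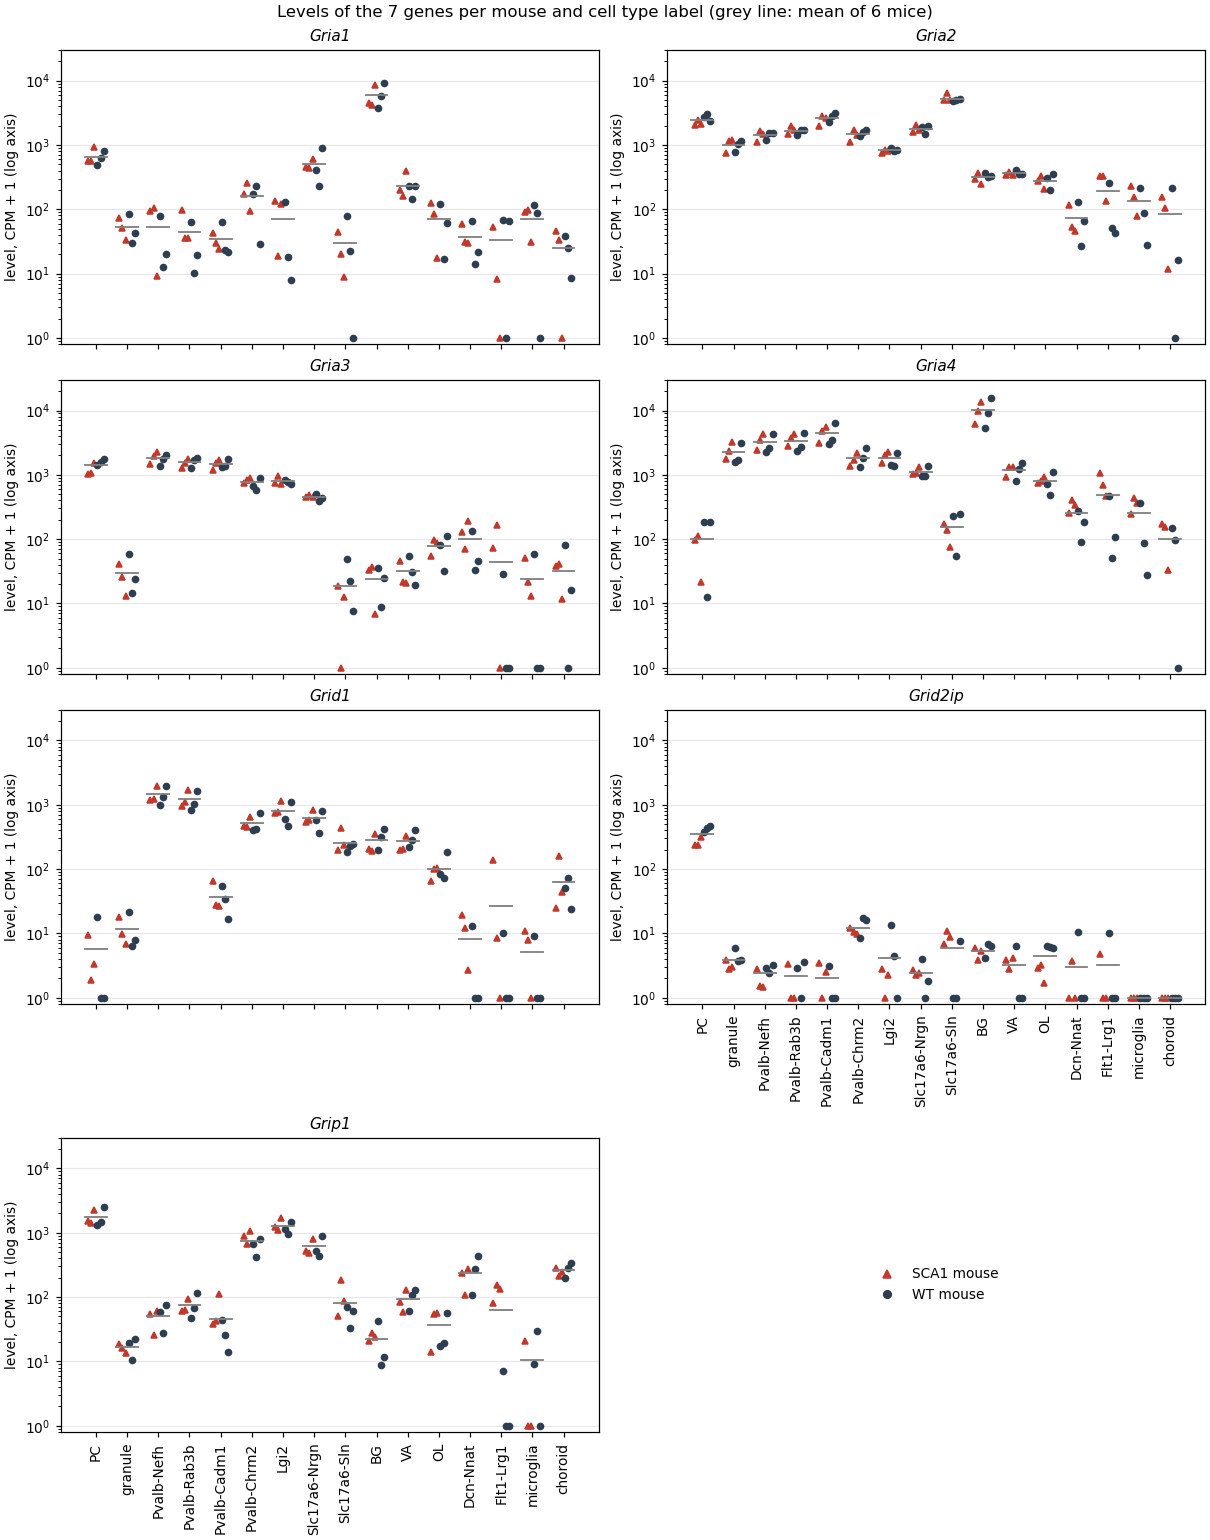
Level of each gene (CPM + 1, log axis) in 16 cell type labels, with 1 point per mouse (triangles SCA1, circles WT) and a grey line at the mean of 6 mice. *Gria1* and *Gria4* peak in BG, *Gria2* in Slc17a6-Sln, *Gria3* and *Grid1* in Pvalb-Nefh, and *Grid2ip* and *Grip1* in PCs, where *Gria4* and *Grid1* are lowest or near it.

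The spread between mice had a common part. In 52 pairs of member and tested label with a mean of at least 100 CPM, SCA1 mouse 3 and WT mouse 3 were the 2 highest of 6 mice in 28. This held for *Gria4* in 10 of 13 labels and *Grid1* in 8 of 9, but for *Gria2* in 0 of 12. The same count over all genes is not given, so it does not set these genes apart from others. Over all genes, the deviations of the mice numbered 3 from the mean of their genotype went together in every tested label. Their r ran from 0.428 in Lgi2 to 0.785 in granule neurons. For the mice numbered 1 it was 0.499 and 0.867 in these labels. Deviations within a genotype sum to 0, so a difference of the mice numbered 1 alone can make r positive for numbers 2 and 3. The part of this common spread in the levels was not tested.

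The makeup of the AMPA subunits differed strongly between labels. Of the UMIs of all 4 *Gria* genes, *Gria2* took 96.3% ± 2.01 in Slc17a6-Sln, 53.3% ± 5.62 in PCs, 46.4% ± 3.86 in Slc17a6-Nrgn, 30.2% ± 3.83 in granule neurons and 2.25% ± 0.995 in BG. In BG, *Gria4* made 60.7% ± 4.38 and *Gria1* 36.9% ± 4.13 of these UMIs. PCs had *Gria3* at 30.1% ± 3.44 and *Gria1* at 14.4% ± 3.47 beside *Gria2*, and *Gria4* at 2.20% ± 1.52. In Pvalb-Nefh, *Gria4* made 49.1% and *Gria3* 28.0%, and *Gria1* 0.891%.

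Reads in introns were counted, so that longer genes can give more UMIs. Gene lengths ran from 34.8 kb for *Grid2ip* to 763 kb for *Grid1*, and *Gria2* is the shortest of the *Gria* genes at 121 kb. Divided by length, *Gria2* made 73.2% ± 4.52 of the *Gria* signal in PCs, 57.1% ± 4.33 in granule neurons, 43.6% ± 3.87 in Pvalb-Nefh and 6.24% ± 2.63 in BG. Per kb, PCs had 20.1 CPM of *Gria2*, 9.88 of *Grid2ip*, 5.03 of *Gria3*, 2.75 of *Grip1* and 2.06 of *Gria1*. BG had 26.5 CPM per kb of *Gria4*, 18.8 of *Gria1* and 2.63 of *Gria2*. By level in PCs *Grid2ip* (344 CPM) was below *Gria2*, *Grip1*, *Gria3* and *Gria1*, and per kb it was second to *Gria2*.

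**Figure D2:**
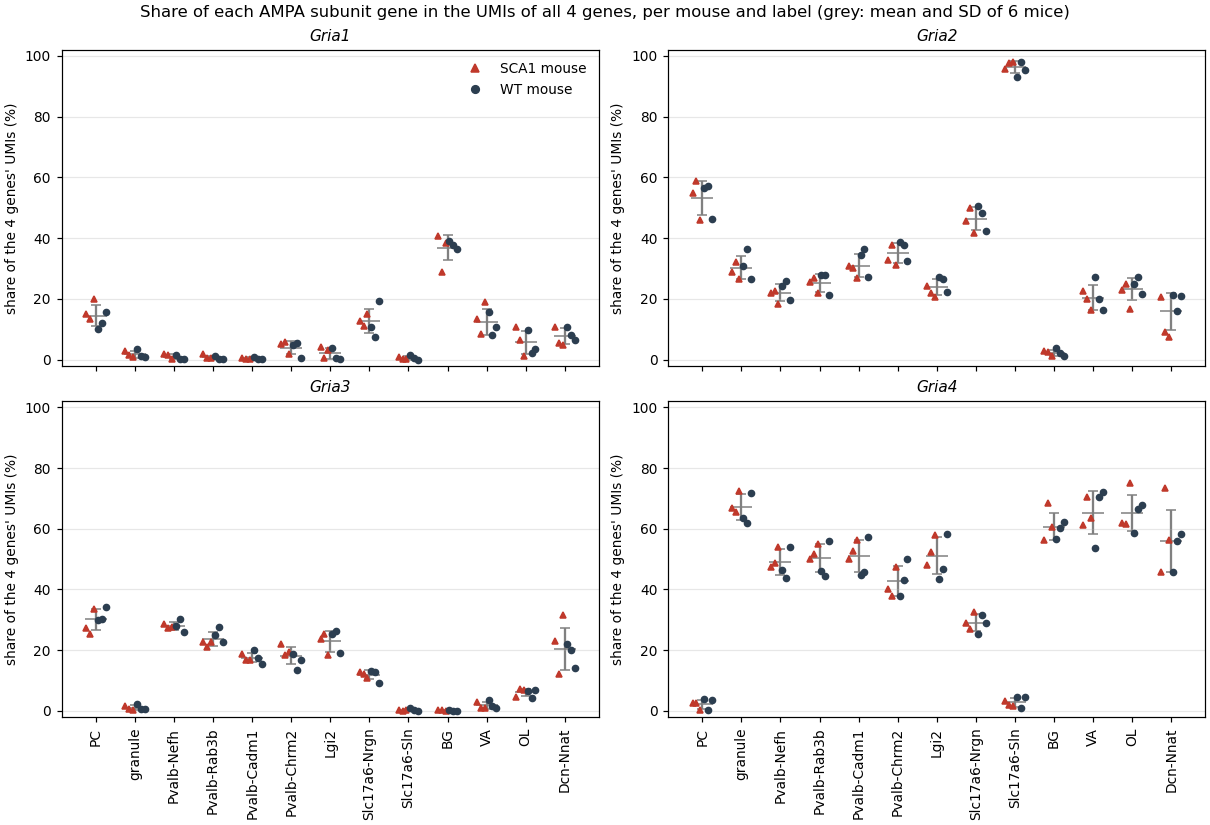
Share (%) of *Gria1*, *Gria2*, *Gria3* and *Gria4* in the UMIs of all 4 genes, in 13 labels, with 1 point per mouse and grey marks at the mean and SD of 6 mice. *Gria2* takes 96.3% in Slc17a6-Sln, 53.3% in PCs and 2.25% in BG, and SCA1 and WT mice overlap in these labels.

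The OL label was not uniform. In every mouse some Seurat clusters of this label had more *Pdgfra*, a gene of oligodendrocyte precursors, than *Mog*, a gene of mature oligodendrocytes. They held 75 of 1384 nuclei, 6 to 21 per mouse. In these nuclei *Gria2* was at 1090 ± 104 CPM, *Gria3* at 574 ± 174, *Gria4* at 2678 ± 830, *Grid1* at 987 ± 206 and *Grip1* at 316 ± 155 CPM (library size only). In the other 1309 OL nuclei they were at 198 ± 56.8, 25.2 ± 19.2, 600 ± 104, 15.8 ± 8.10 and 6.41 ± 5.15 CPM. For these 5 genes every mouse was higher in the *Pdgfra* clusters than any mouse in the others, while *Gria1*, at 69.4 and 70.6 CPM, overlapped. The level of a member in OL as a whole is thus a mix of both.

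**Figure D3:**
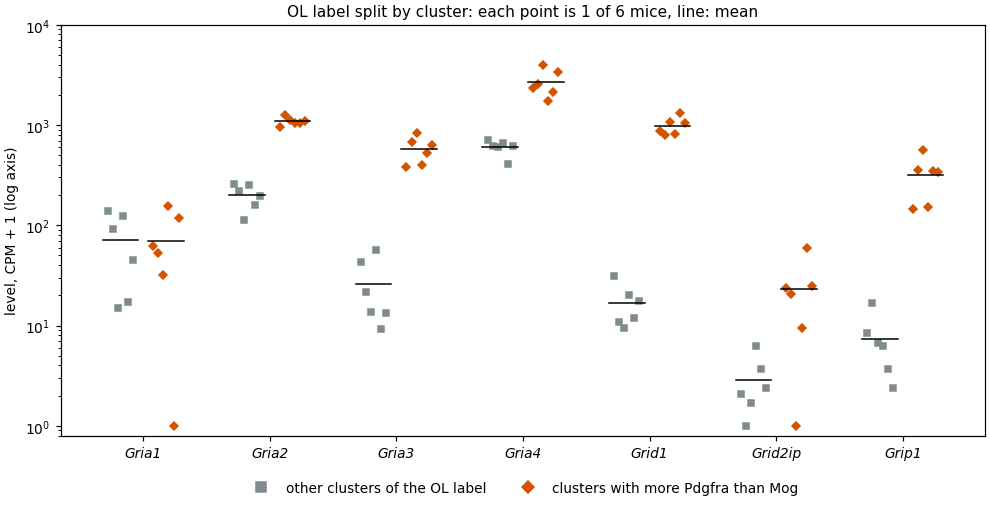
Level (CPM + 1, log axis) of each gene in OL-labelled nuclei of clusters with more *Pdgfra* than *Mog* (diamonds) and in the others (squares), with 1 point per mouse and a line at the mean. *Gria2*, *Gria3*, *Gria4*, *Grid1* and *Grip1* separate fully, *Gria1* and *Grid2ip* do not.

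Genes of like pattern were taken as those with the highest Pearson r of log2(mean CPM + 1) over 13 labels in the WT mice, among 13959 genes. These r share libraries and labels and are a description. *Gria3* was closest to *Ajap1* (r = 0.977), *Gria2* to *Unc79* (0.959) and *Crmp1* (0.953), and *Grid1* to *Gm16054* (0.937) and *Adgrl3* (0.912). *Grid2ip* was closest to *Pih1h3b* (0.933) and *Stac* (0.927), *Gria4* to *Zfp770* (0.906), and *Gria1* to *Gm42953* (0.852) and *Cacng5* (0.847), a gene of an auxiliary AMPA receptor subunit. *Grip1* was closest to *Grip1os1* (0.949) and *Grip1os2* (0.922), which lie within *Grip1* on the opposite strand (119825204 to 119852390 and 119746063 to 119761699 of chromosome 10), and whether the counting used strand is not given in the sources used here. Among the 7, the highest r was 0.556, between *Grid2ip* and *Grip1*, and the lowest -0.483, between *Gria4* and *Grid2ip*.

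The comparison of SCA1 with WT mice asks whether receptor genes differ in PCs that carry the transgene or in the cells around them. Sums per mouse were compared by edgeR's quasi-likelihood test, fitted to all genes of a label with genotype and batch in the model, and p-values were adjusted after Benjamini and Hochberg. Of 91 possible pairs of member and label, 76 had enough counts. None was called at an adjusted p of at most 0.05, against 0.00156% of all genes tested over the 13 labels (2 of 128055). An unadjusted p under 0.05 was found for 5 of the 76, against 1.87% of all genes, and DESeq2 and limma-trend on the same sums also called 0. With a block on the replicate number edgeR called 1, *Grid2ip* in PCs. These numbers are those of the sample titles, and beyond the batch nothing given pairs the mice that share one. Log2 fold changes ran from -0.74 to 1.17 with a median size of 0.15, and 42 were above and 34 below 0. In 1 of the 76 pairs, *Grid2ip* in PCs, no SCA1 mouse reached the range of the WT mice, against 5.18% of all genes tested.

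**Figure D4:**
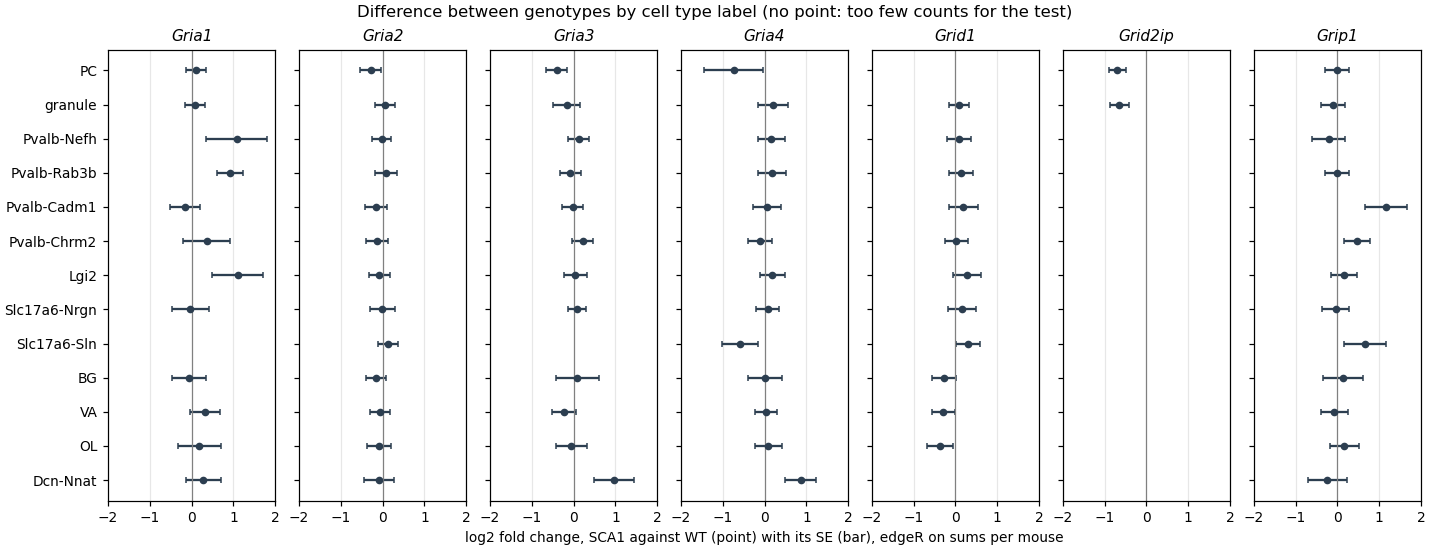
Log2 fold change of SCA1 against WT (point) with its SE (bar) for each gene in 13 labels, from edgeR on sums per mouse, where a missing point had too few counts. No point passed the adjusted threshold, and *Grid2ip* in PCs was the one with mice that did not overlap.

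In PCs, *Grid2ip* was at 235, 235 and 316 CPM in SCA1 mice 1, 2 and 3 and at 380, 432 and 465 CPM in WT mice 1, 2 and 3. All SCA1 mice were below all WT mice, as for 5.09% of the genes tested in PCs. Its log2 fold change was -0.70 (SE 0.20, unadjusted p = 0.00562, adjusted p = 0.365, edgeR). It was -0.68 within batch 1 and -0.70 within batch 2, and -0.82 to -0.58 with each mouse left out in turn. With the replicate block it was -0.71 (SE 0.12, adjusted p = 0.0207, edgeR), in a fit that called 1.74% of all PC genes. That block pairs mice by the number in their title, which is not a pairing known from the design. With nuclei as replicates, limma-trend gave an adjusted p of 0.0140 in a test that called 1.9% of all genes and takes nuclei of 1 mouse as independent. In granule nuclei, where *Grid2ip* was at 2.79, 1.80 and 2.01 CPM in the SCA1 mice and 4.94, 2.73 and 2.86 CPM in the WT mice, the mice overlapped and the fitted log2 difference was -0.66 (SE 0.23, adjusted p = 1.00). Each SCA1 mouse was below the WT mouse of the same number, and the replicate block did not call it there. The difference between PCs and granule nuclei, tested as an interaction with mouse as a term, was -0.076 (SE 0.38, adjusted p = 1.00). PC genes were also found in granule nuclei, to very unlike degrees. *Skor2* was at 0.415 CPM there against 85.3 CPM in PCs, *Car8* at 253 against 2463 CPM, and *Pcp4* at 415 against 522 CPM. The part of PC RNA in the granule values of *Grid2ip* was not tested.

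The other scaffold gene, *Grip1*, was at 1726 ± 477 CPM (SD, n = 3) in PCs of SCA1 mice and 1756 ± 636 CPM in those of WT mice. Its log2 fold change was -0.0087 (SE 0.30), which was 0.17 when scaled by library size only. That scaling moved the median over all PC genes to 0.20, from 0.020. The AMPA subunits most abundant in PCs overlapped between genotypes. *Gria2* was at 2061, 2449 and 2101 CPM in SCA1 and 2710, 2981 and 2372 CPM in WT mice (log2 fold change -0.29, SE 0.25), and SCA1 mouse 2 was above WT mouse 3. *Gria3* was at 1030, 1053 and 1524 CPM in SCA1 and 1436, 1583 and 1754 CPM in WT mice (-0.41, SE 0.24), where SCA1 mouse 3 reached into the WT range. *Gria1* was at 563, 556 and 911 CPM in SCA1 and 479, 626 and 808 CPM in WT mice (0.10, SE 0.25). Adjusted p were 0.907 or more for each of these (edgeR). *Gria4*, near the level that granule RNA at the *Gabra6* ratio would give, was at 97.0, 109 and 21.0 CPM in SCA1 and 181, 11.6 and 182 CPM in WT PCs (-0.74, SE 0.70, adjusted p = 0.999, edgeR), so that each genotype held both high and low mice. *Grid1* was not tested for want of counts.

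**Figure D5:**
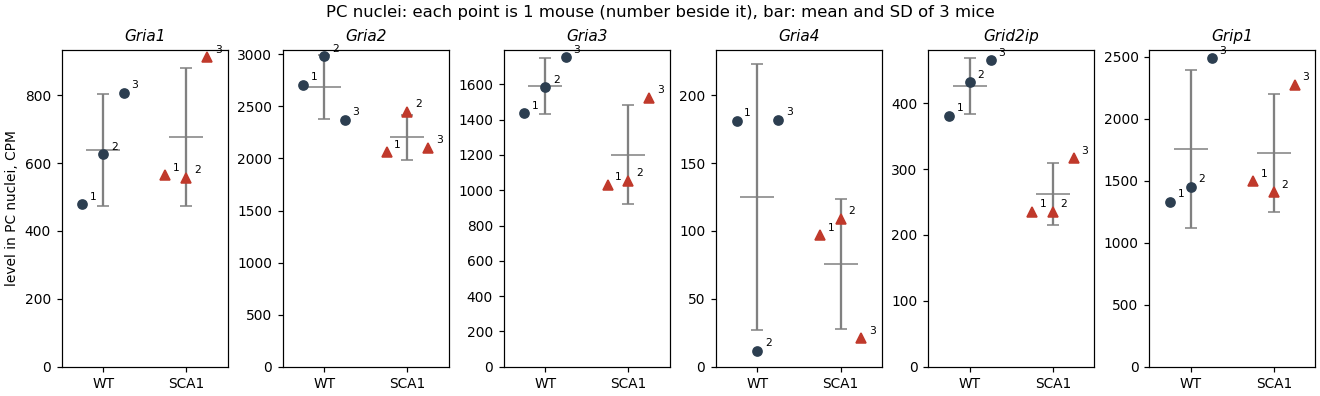
Level (CPM) of 6 genes in PC nuclei, with 1 point per mouse (its number beside it) and grey marks at the mean and SD of 3 mice. *Grid2ip* runs from 235 to 316 CPM in SCA1 and from 380 to 465 CPM in WT mice, and the other genes overlap.

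In BG, differences of the abundant subunits were within the spread between mice. *Gria1* averaged 5743 ± 2456 CPM over SCA1 mice against 6249 ± 2810 CPM over WT mice, a log2 fold change of -0.071 (SE 0.41), and *Gria4* 9885 ± 3690 and 10139 ± 5302 CPM, a log2 fold change of 0.0029 (SE 0.41) whose sign turned to -0.0053 with RLE factors. *Gria2* in BG was -0.16 (SE 0.23) and *Grid1* -0.27 (SE 0.28), all with adjusted p of 1.00. In VA and OL the log2 fold changes of 6 members ran from -0.29 to 0.31 and from -0.37 to 0.18.

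In granule neurons, which held most UMIs, *Gria4* was at 1772, 2362 and 3234 CPM in SCA1 and 1580, 1725 and 3111 CPM in WT mice (log2 fold change 0.20, SE 0.36). *Gria2* was at 760, 1160 and 1180 CPM in SCA1 and 768, 1017 and 1153 CPM in WT mice (0.068, SE 0.24). Both overlapped almost fully between genotypes, though for *Gria4* each SCA1 mouse was above the WT mouse of the same number. The replicate block called neither. Outside PCs, differences large relative to their SE were found in granule nuclei, interneurons of the molecular layer and Dcn-Nnat. *Grid2ip* in granule nuclei, given above (-0.66, SE 0.23), was among these. *Gria1* in Pvalb-Rab3b was at 97.7, 35.05 and 34.8 CPM in SCA1 and 61.7, 9.23 and 18.5 CPM in WT mice, a log2 fold change of 0.92 (SE 0.31, unadjusted p = 0.0107, adjusted p = 1.00). *Grip1* in Pvalb-Cadm1 was at 37.5, 41.4 and 112 CPM in SCA1 and 42.3, 24.996 and 13.1 CPM in WT mice (1.17, SE 0.50, unadjusted p = 0.0372, adjusted p = 1.00), on 158 UMIs in all, and was -0.12 within batch 1. In Dcn-Nnat, *Gria4* was at 254, 412 and 337 CPM in SCA1 and 274, 90.2 and 185 CPM in WT mice (0.86, SE 0.38), again with the opposite sign, -0.082, within batch 1. Its mean there was 259 CPM, where granule RNA at the *Gabra6* ratio would give 265 CPM, and 3 of 6 mice were above that level. *Gria3* in Dcn-Nnat was at 128, 68.3 and 189 CPM in SCA1 and 132, 32.2 and 45.2 CPM in WT mice (0.97, SE 0.48, adjusted p = 1.00), and was -0.020 within batch 1. In Slc17a6-Sln, *Gria2* had a log2 fold change of 0.13 (SE 0.24).

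In Pvalb-Nefh, *Gria1* was at 94.0, 102.4 and 8.23 CPM in SCA1 and 76.2, 11.7 and 19.2 CPM in WT mice (log2 fold change 1.07, SE 0.73, adjusted p = 1.00, edgeR). In Lgi2, *Gria1* was at 132, 17.9 and 119 CPM in SCA1 and 129, 17.2 and 7.08 CPM in WT mice (1.10, SE 0.61, adjusted p = 1.00). In both labels each genotype held high and low mice. Within batch 1 the log2 differences were 0.31 in Pvalb-Nefh and 0.071 in Lgi2, and without SCA1 mouse 2 that of Pvalb-Nefh was -0.037. With each mouse left out in turn, that of Lgi2 ran from 0.15 to 2.57. The log2 fold changes of the 6 members tested ran from -0.21 to 1.07 in Pvalb-Nefh, from -0.079 to 1.10 in Lgi2, from -0.14 to 0.46 in Pvalb-Chrm2 and from -0.045 to 0.15 in Slc17a6-Nrgn.

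An interaction term, with granule neurons of each mouse as the reference, asked for 84 pairs whether the genotype difference depended on the label. Again 0 were called, against 0.00364% of all genes (7 of 192146), and 5 had an unadjusted p under 0.05, against 2.28%. Without WT mouse 1, *Grip1* in Pvalb-Cadm1 was called (adjusted p = 0.0368, edgeR), in a fit that called 0.771% of all genes.

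The share of each *Gria* gene among the UMIs of all 4 overlapped between genotypes in PCs and BG. In PCs *Gria2* took 53.3% ± 6.50 in SCA1 and 53.4% ± 6.07 in WT mice, and in BG *Gria4* took 61.8% ± 6.06 and 59.7% ± 2.81 (SD, n = 3). Over 52 pairs of subunit and label, the lowest p was 0.1, for *Gria3* in Pvalb-Rab3b (22.1% ± 0.813 in SCA1, 25.2% ± 2.47 in WT), the smallest that a two-sided exact permutation test of 3 mice against 3 allows (adjusted p = 0.975). Shares of nuclei with a UMI were compared by the same exact test, at 3000 UMIs per nucleus, for all 91 pairs. In 2 pairs the mice did not overlap (exact permutation p = 0.1, adjusted p = 1), both for *Grid2ip* outside PCs, against 5.15% of all pairs of gene and label with a UMI. Without thinning 0 of the 91 pairs did not overlap, against 3.6% of all, and at 1000 UMIs 4 did not, against 5.17%. SCA1 mice had 0.406% of OL nuclei with a UMI against 1.56% in WT mice, and 2.98% of Slc17a6-Sln nuclei against 0.424%, shares that rest on 32 and 6 UMIs in all nuclei. For PCs the share with *Grid2ip* averaged 46.6% ± 13.2 over SCA1 mice against 60.5% ± 10.7 over WT mice (exact permutation p = 0.3), with 2 and 10 shallower nuclei left out.

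Within SCA1 mice, PC nuclei with a UMI of human *ATXN1* (*hATXN1*+, 31 of 146 nuclei) were set against those without (*hATXN1*-), in a fit with mouse as a term. *Gria4* was called lower in *hATXN1*+ nuclei, with 92.1 against 114, 29.8 against 157 and 5.77 against 30.4 CPM (library size only) in SCA1 mice 1, 2 and 3. Its log2 difference was -1.38 (SE 0.31, adjusted p = 0.0176, edgeR), and 1.47% of the genes tested were called. It was -2.50 without SCA1 mouse 1 (adjusted p = 3.15e-07), -0.90 without SCA1 mouse 2 (adjusted p = 0.278) and -1.16 without SCA1 mouse 3 (adjusted p = 0.00212), where 1.8%, 1.39% and 1.34% of all genes were called (edgeR). Each of these fits rests on 2 mice, so that its adjusted p says little of the spread between mice. In SCA1 mouse 2 the *hATXN1*- nuclei had a median of 7287.5 UMIs and the *hATXN1*+ nuclei 34274.5. With nuclei of at least 10000 UMIs in all mice, whose medians in SCA1 mouse 2 were 32124 and 40955 UMIs, the difference was -1.42 (adjusted p = 0.00541, edgeR, where 2.54% of all genes were called). *Gabra6*, the granule gene, went the same way, with -1.09 (SE 0.40, adjusted p = 0.264). *Gria4* rests here on 39, 10 and 4 UMIs in the *hATXN1*+ nuclei of the 3 mice, and the parts of granule RNA and of the depth that still differed were not tested. *Grid2ip* differed by -0.48 (SE 0.17, adjusted p = 0.230) and was lower in *hATXN1*+ nuclei of all 3 mice, at 248 against 272, 241 against 259 and 219 against 371 CPM. Without SCA1 mouse 3 its difference was -0.22 (adjusted p = 0.853). *Gria1*, *Gria2*, *Gria3* and *Grip1* had log2 differences between -0.30 and 0.13.

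Partners of the receptors were followed with lists of 24 genes of auxiliary subunits and extracellular partners, 23 of scaffold, transport and editing, and 18 of delta receptor partners and the postsynaptic scaffold. Over 13 labels edgeR called 0 of 673 pairs of list gene and label, with an unadjusted p under 0.05 for 19, against 0.00156% and 1.87% of all genes over these labels, and DESeq2 called 2. In PCs 48 of these 65 genes could be tested, and their mice did not overlap for 2 higher and 6 lower genes, against 10.3% of all genes in both directions together. The median log2 fold change was -0.12 for the auxiliary list (13 tested), 0.039 for the scaffold list (21) and -0.063 for the delta list (14), against 0.020 for all genes.

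Several of the PC genes whose mice did not overlap are given with their log2 fold changes. *Nptx1* (-0.99, SE 0.25, adjusted p = 0.266), a secreted pentraxin that gathers AMPA receptors, and its membrane-bound receptor *Nptxr* (-0.85, SE 0.30, adjusted p = 0.541) were of the auxiliary list. *Homer3* (-0.84, SE 0.20, adjusted p = 0.232) and *Shank2* (-0.63, SE 0.24, adjusted p = 0.598), both genes of postsynaptic scaffold proteins, were of the delta list. From the scaffold list came *Adarb1* (-0.24, SE 0.19), which edits the GluA2 transcript, *Sdcbp* (0.50, SE 0.25) and *Gripap1* (0.27, SE 0.21), whose protein binds that of *Grip1*. In BG, *Shisa6* (-0.85, SE 0.28), *Frrs1l* (-0.35, SE 0.22) and *Abhd6* (-0.33, SE 0.23), all of AMPA receptor auxiliary or assembly proteins, and the scaffold gene *Epb41l1* (-0.48, SE 0.24) had no overlap (2.61% of all BG genes were lower without overlap), and in granule neurons *Dlg3* (-0.39, SE 0.20) and *Becn1* (-0.12, SE 0.13; 1.7% of all granule genes were lower without overlap), all with adjusted p of 1.00. The calls by DESeq2 were *Homer3* (adjusted p = 0.00624) and *Nptx1* (adjusted p = 0.0437) in PCs, where it called 1.27% of all genes. With the replicate block edgeR called *Homer3* (adjusted p = 0.0116), *Shank2* (adjusted p = 0.0205), *Nptx1* (adjusted p = 0.0234) and *Shisa6* (adjusted p = 0.0391) in PCs, where it called 1.74%. The lists were chosen with earlier results of these mice known and are no independent evidence of a direction.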

How the data were processed

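The authors sequenced 10x libraries of cerebellar nuclei, aligned them with Cell Ranger (the submitters' processing notes list versions 4.0.0, 5.0.1 and 6.0.1) to mm10, extended by the locus of human *ATXN1*, counting reads in introns too, removed debris with DIEM, and deposited UMI counts per gene and nucleus, with Seurat 4.0.4 clusters (a number per nucleus, other than an expression value) and a SingleR label. No doublet caller was run here.

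Counts were summed per mouse and label. Sums were tested with edgeR 4.0.16 (R 4.3.3; TMM factors, filterByExpr, min.count 10, min.total.count 15) over all genes, with genotype and batch as terms, as in the study's methods, and Benjamini-Hochberg adjustment at 0.05. Sequencing depth ran from 18916647 to 98366627 UMIs per mouse, and limits and floors cover counting error only. The p-values of SCA1 against WT on sums measure the spread between 3 mice per group. Those with nuclei as replicates measure the spread between nuclei, and those of *hATXN1*+ against *hATXN1*- nuclei compare parts of the same SCA1 mice. Alternatives were RLE factors, library size only, no filter, a fit without batch, a block on the replicate number, DESeq2 1.42.0, limma-trend (limma 3.58.1, prior count 2) on sums and, after scran 1.30.0, on nuclei (PCs, BG, VA and OL only), nuclei whose label was that of their cluster, nuclei of at least 3000 UMIs, each batch alone and each mouse left out. Added after the data were seen were nuclei of at least 10000 UMIs and each SCA1 mouse left out for *hATXN1*, levels without WT mouse 2, and the split of OL. Shares of nuclei were computed as the expected share after thinning to 3000 UMIs, with shallower nuclei left out, and tested with an exact permutation test (scipy 1.17.1). Gene positions are of GENCODE's annotation of GRCm38. The scripts were tested on simulated data.

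All 7 members were to be named in every tested label; where a label's differences are not given one by one, their range is. Of the partner lists, genes called in a label were to be named, or else, in PCs, BG and granule nuclei, up to 4 per list whose SCA1 mice all lay on one side of the WT mice. The genes of like pattern were the 3 of highest r among genes with at least 10 CPM in 1 label. Members and lists were chosen with earlier results of these data known. One gene of these lists enters the counts and is not reported here.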

Additional observations from a re-analysis of the deposited data

Results flagged for a closer look

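Labels with fewer than 50 nuclei were in no comparison, and members with more than 3 UMIs were found in 8 of them. In Polydendrocyte.Tnr.Tnr, with 12 nuclei of 5 mice, 6 members passed, with *Gria2* at 1346 CPM (293 UMIs), *Gria4* at 1139 CPM (248 UMIs), *Grid1* at 1061 CPM (231 UMIs) and *Gria3* at 129 CPM (28 UMIs). Endothelial_Stalk.Flt1.Mgp had 6, Endothelial_Tip.Dcn.Apod 5 and Endothelial_Stalk.Flt1.Car4 4 such members, and in each *Gria4* was among the highest, at 391, 156 and 616 CPM. Oligodendrocyte.Trf.Klk6 and Mural.Acta2Rgs5.Kcnj8 had 2, and Mural.Acta2Rgs5.Acta2 and the single nucleus of Gja1.Gfap had 1. These values have no comparison between mice. In the larger labels Flt1-Lrg1 and Dcn-Nnat, *Gria4* averaged 478 and 259 CPM, where granule RNA at the *Gabra6* ratio would give 377 and 265 CPM. The part of granule RNA in the small labels was not tested.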

How the results depend on the processing

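*Grid2ip* in PCs was lower in SCA1 mice under all 18 alternatives run, with log2 fold changes of -0.82 to -0.52 and adjusted p of 0.0140 to 0.999 (edgeR, limma or DESeq2). With the replicate block, run in 13 labels, 1 member was called, and with nuclei as replicates, run in PCs, BG, VA and OL, also 1, *Grid2ip* in PCs in both (-0.71, adjusted p = 0.0207, edgeR with the replicate block). The deviations of same-numbered mice had r of 0.673, 0.0670 and 0.503 for numbers 1, 2 and 3 in PCs. All 39 r were above 0, and all 3 were above 0.1 in 6 of 13 labels (0.867, 0.260 and 0.785 in granule neurons), PCs not among them. Deviations within a genotype sum to 0, so a difference between the batches alone can make these r positive. The mice numbered 1 are also batch 1, and nothing else given pairs mice of the same number. The block changed no other member's call, in these 6 labels or elsewhere. With each mouse left out, 0 members were called in every label, while 0 to 1 interactions were called in Pvalb-Cadm1 (*Grip1* without WT mouse 1, adjusted p = 0.0368, edgeR, in a fit that called 0.771% of all genes) and 0 to 1 members in *hATXN1*+ PCs (0 without SCA1 mouse 2). Pairs whose shares of nuclei did not overlap numbered 0 unthinned and 4 at 1000 UMIs, against 3.6% and 5.17% of all genes. List genes called numbered 2 by DESeq2, 3 without a filter (*Lin7a* and *Nptx1* in PCs, *Cacng4* in Pvalb-Chrm2) and 4 with the replicate block (*Homer3*, *Shank2*, *Nptx1* and *Shisa6*). In PCs these fits called 1.27%, 1.04% and 1.74% of all genes, and in Pvalb-Chrm2 the fit without a filter 0.134%.

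Signs turned for several differences: *Grip1* in PCs was 0.17 by library size only and 0.18 within batch 1; *Gria1* in BG was 0.27 within batch 1 and 0.019 with nuclei as replicates; *Grid1* in BG was 0.10 within batch 1. *Gria4* in BG was -0.0053 with RLE factors, -0.037 with no batch term, -0.00055 by DESeq2, -0.010 with nuclei of at least 3000 UMIs and -0.074 within batch 2. Within batch 1, *Grip1* in Pvalb-Cadm1 was -0.12, and in Dcn-Nnat *Gria4* was -0.082 and *Gria3* -0.020, against 1.17, 0.86 and 0.97 in all mice; for *Gria3* in Dcn-Nnat every other alternative was positive. With each mouse left out, log2 fold changes ran from -0.097 to 0.30 for *Gria1*, -1.54 to 0.36 for *Gria4* and -0.20 to 0.27 for *Grip1* in PCs, -0.36 to 0.21 for *Gria1* and -0.18 to 0.29 for *Gria4* in BG, -0.018 to 0.47 for *Gria4* in granule neurons, -0.037 to 1.81 for *Gria1* in Pvalb-Nefh, and -0.45 to 0.24 for the *Grid2ip* interaction in PCs. Others kept their sign but moved: *Gria1* in Lgi2 ran from 0.15 to 2.57 and *Grip1* in Pvalb-Cadm1 from 0.46 to 2.04. In Dcn-Nnat, *Gria4* ran from 0.49 to 1.41 and *Gria3* from 0.36 to 1.72. The cause of these turns and moves was not tested. All 413 alternative levels moved by less than 1 SD. Means over the WT mice alone or without WT mouse 2 cannot move by 1 SD of the 6 mice, so they test nothing here. Agreed labels gave no fit in 6 labels with too few such nuclei.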

Other observations

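Flt1-Lrg1 nuclei were too few for the test (4 to 26 per mouse). There *Grip1* had 21, 21 and 12 UMIs in SCA1 mice 1, 2 and 3 (79.3, 155 and 132 CPM) and 2, 0 and 0 UMIs in WT mice 1, 2 and 3 (6.18, 0 and 0 CPM). The pair was singled out after its values were seen, and WT mice 2 and 3 had 18697 and 44279 UMIs of all genes in this label against 341104 in WT mouse 1.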
